A study of Mus musculus with 2 samples.

Results

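The 10 genes described here encode 8 WNT ligands (Wnt2, Wnt4, Wnt5a, Wnt5b, Wnt6, Wnt7b, Wnt9b and Wnt11) and 2 R-spondins (Rspo1 and Rspo3). They were listed by name and found on the arrays through the accession of each probe, which gave 11 probes for 10 of 10 genes, with 2 probes for Wnt4. All 10 were among the 20629 genes tested. Transcripts were compared in ureters dissected from NMRI mouse embryos at E14.5. The ureters labelled knockout carried 1 Cre allele at Tbx18, written Tbx18(cre/+), and were homozygous for floxed Tbx2, Tbx2(fl/fl), and for floxed Tbx3, Tbx3(fl/fl). Cre, expressed from the Tbx18 locus in the progenitors of the ureteric mesenchyme, thus acts on these T-box repressor genes in that lineage, while the epithelium is not a site of Tbx18 expression. The controls were Tbx18(+/+), without Cre, with 1 floxed allele of each gene and the other not specified, written Tbx2(fl/?) and Tbx3(fl/?). Each of 2 Agilent arrays held 1 labelled knockout RNA and 1 control RNA in different dyes. The female pair had the knockout RNA in AlexaFluor647 and the male pair had it in AlexaFluor555, so the sex of a pair and its dyes cannot be told apart. The sources used here do not say how many embryos made up an RNA, and the 2 pairs limit the precision of every value.

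WNT ligands are lipid-modified secreted proteins that bind Frizzled receptors together with LRP or ROR co-receptors. Some stabilise beta-catenin, which acts with TCF/LEF factors on target genes, and others act mainly on cell polarity and movement. R-spondins bind LGR receptors and remove the ubiquitin ligases ZNRF3 and RNF43, which keeps Frizzled at the cell surface and strengthens a WNT signal. In the embryonic ureter, WNT ligands made by the epithelium signal to the surrounding mesenchyme, where the response is needed for smooth muscle development, and Tbx2 and Tbx3 are known to act downstream of that response. From textbook knowledge of the embryonic urinary tract, Wnt6, Wnt7b, Wnt9b and Wnt11 were counted here as epithelial ligands and Wnt2, Wnt4 and Wnt5a as mesenchymal ligands. Wnt5b was left unassigned and the R-spondins were kept apart. The RNA came from whole ureters, so the arrays do not show which compartment a transcript came from, and fewer cells of a type and less RNA per cell cannot be told apart.

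Promoter sequences are shown for the 2 genes that passed the test, Wnt11 and Wnt5b, because the deleted factors and beta-catenin both act through DNA sites. RefSeq sequences (build GRCm38.p6) of 300 bases, 250 before and 50 after an annotated start, were held for 7 of 10 genes, with 10 promoters in all. There was no entry for Wnt5a, Wnt7b and Rspo3. Both strands were searched for the TCF/LEF core CTTTGAT, the T-box core GGTGTG and its longer form AGGTGTGA, which contains that core. Capitals mark the matches.

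Wnt11 (GRCm38.p6, chr7:98834862-98835161, + strand): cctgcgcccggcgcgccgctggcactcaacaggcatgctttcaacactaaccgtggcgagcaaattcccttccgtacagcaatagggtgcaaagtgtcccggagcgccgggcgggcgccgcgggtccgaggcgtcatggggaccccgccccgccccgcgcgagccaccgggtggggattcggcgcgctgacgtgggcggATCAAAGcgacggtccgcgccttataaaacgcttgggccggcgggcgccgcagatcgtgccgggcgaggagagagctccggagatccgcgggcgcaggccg
Wnt5b (GRCm38.p6, chr6:119449337-119449636, - strand): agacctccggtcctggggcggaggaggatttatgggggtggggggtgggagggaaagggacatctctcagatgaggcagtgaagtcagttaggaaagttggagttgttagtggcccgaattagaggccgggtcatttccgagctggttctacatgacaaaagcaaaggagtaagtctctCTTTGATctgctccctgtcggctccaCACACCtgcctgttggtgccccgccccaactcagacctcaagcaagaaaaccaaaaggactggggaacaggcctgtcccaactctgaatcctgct

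The TCF/LEF core was present in these 2 of the 10 promoters, against 3.73% of 32851 promoters of the same length. It began at position -51 from the start of Wnt11, on the opposite strand, and at -71 from this start of Wnt5b, on the gene's strand. The T-box core was found once in the Wnt5b promoter shown, at -45 on the opposite strand, and once in the Rspo1 promoter, at -96. That core was in 19% of all promoters, and the longer form was in 0 of the 10 and in 1.28% of all. The windows shown are those of each gene that held a match. The other annotated starts, 1 of Wnt11 and 2 of Wnt5b, held none of these letters and are not shown. The 10 promoters came from 7 genes, and Wnt11 and Wnt5b had more than 1 each, so they had more windows in which to hold a match. The shares were not tested. The matches describe the letters of these windows and no binding was measured.

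Across the arrays, 39396 probes were measured with 4 spots each on both. Between 64.3% and 71.6% of spots were well above background in each dye, and 0 spots were saturated. The targeted genes were read first. Tbx3 had log2 intensities of 14.11 in the labelled knockout and 15.27 in the control of the female pair, and of 14.03 and 15.05 in the male pair. Tbx2 had 13.09 and 12.15, and 12.87 and 12.09. The Tbx3 signal was therefore lower where the label says knockout, at a mean log2 ratio of -1.09, which goes with that label. The Tbx2 signal was higher there, at 0.86, which goes against it. Tbx18, where the knockouts carry 1 Cre allele, was at 0.15 and did not pass the test. The sources used here do not place the Tbx2 or the Tbx3 probe inside or outside the deleted exons, so directions are those of the labelled RNAs. The ureter was present by its markers, with 14 of 14 epithelial and 9 of 9 mesenchymal markers above background, including Upk2, Upk3a and Tbx18. None of the epithelial markers passed the test, with Upk3a at 0.27 and Upk1b at -0.29. All 6 smooth muscle markers fell, with a median log2 ratio of -3.05 and the lowest at -3.55 for Actg2.

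Wnt11 and Wnt5b rose in the ureters labelled knockout, and the other 8 genes did not pass the test. At an adjusted p under 0.05 (limma, Benjamini-Hochberg over all genes), 2 of the 10 genes were called, both higher. Over all genes tested 3.68% were called, 1.87% as higher and 1.81% as lower. The median log2 ratio of labelled knockout over control was 0.14 for the 10 genes and -0.0021 for all genes tested. Of the 10 genes, 8 were above 0 in both pairs, 1 was below 0 in both and 1 had opposite signs, while 27.6% of all genes tested were above 0 in both pairs. Most of these shifts were small: the smallest change called on these arrays was 0.34 in log2 units, and 8 of the 10 genes had smaller mean ratios. The 10 genes were chosen with earlier results of these data known, so setting them against all genes is a description and no test.

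**Figure D1:**
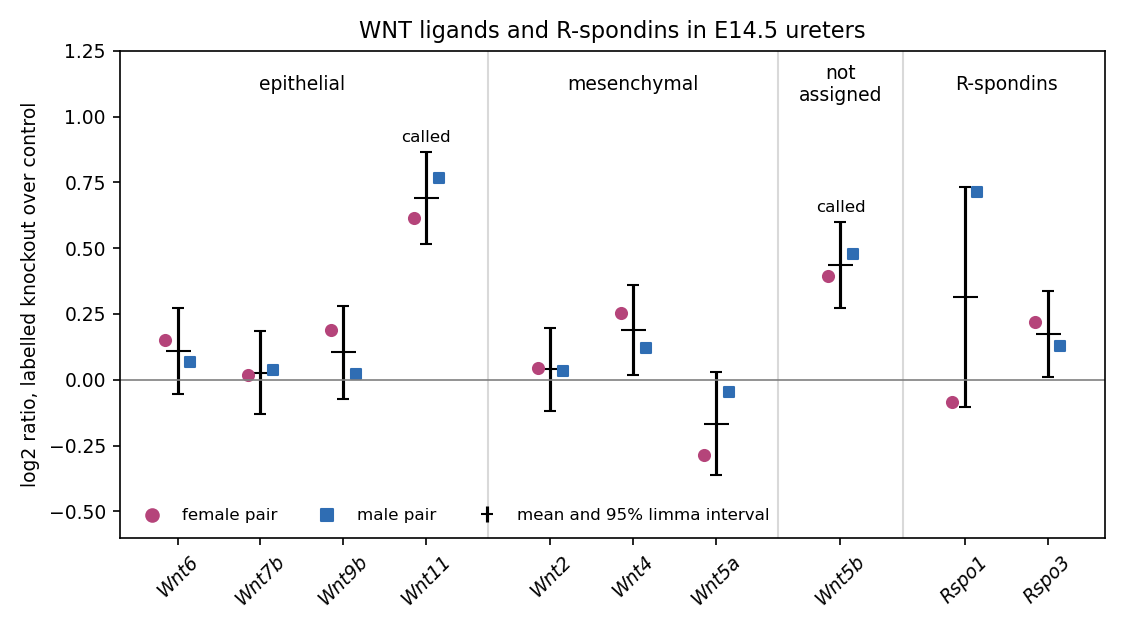
Log2 ratio of labelled knockout over control (vertical axis) for each of the 10 genes, as circles for the female pair and squares for the male pair, with the mean and its 95% interval from limma as bars. Wnt11, at 0.69, and Wnt5b, at 0.44, lie apart from 0 in both pairs, and the 2 pairs of Rspo1 lie on either side of 0.

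Among the epithelial ligands, Wnt11 rose. Wnt11, best known from the tips of the branching ureteric bud and mostly a ligand of beta-catenin-independent signalling, had log2 intensities of 12.54 in the labelled knockout and 11.92 in the control of the female pair. In the male pair they were 12.52 and 11.76. The knockout RNA was thus above its control in both pairs, as it was for 27.6% of all genes tested. The log2 ratio was 0.69 ± 0.11 (SD, n = 2 pairs, limma adjusted p = 0.00538), which is 1.61-fold with a 95% interval from 1.43 to 1.82. The ratios were 0.62 and 0.77, and the SD between the 4 spots of an array, which holds no spread between samples, was 0.038 and 0.027. By mean ratio, Wnt11 ranked 100 among the 20629 genes, counted from the largest rise.

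The other epithelial ligands lay near 0. Wnt7b, a urothelial ligand that signals to the ureteric mesenchyme through beta-catenin, had intensities of 11.42 and 11.41 in the knockout and control RNA of the female pair and of 11.34 and 11.30 in the male pair. Its log2 ratio was 0.027 ± 0.012 (SD, n = 2 pairs), with an interval from -0.13 to 0.18. Levels were not scaled between the arrays, so the gap between the pairs is not read.

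Wnt9b, which the ureteric bud and its stalk make and which induces nephron formation in the kidney, was at 9.46 and 9.27 in the female pair and at 9.24 and 9.22 in the male pair. Its log2 ratio was 0.10 ± 0.12 (SD, n = 2 pairs), smaller than the spread between the pairs. Wnt6, also a ligand of the ureteric bud, was at 9.61 and 9.45, and at 9.36 and 9.30, a ratio of 0.11 ± 0.060. The intervals were -0.072 to 0.28 for Wnt9b and -0.053 to 0.27 for Wnt6 and both included 0. Adjusted p-values of these 3 genes lay between 0.604 and 0.961 in limma.

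Within each array, the Wnt11 ratio exceeded that of the 3 other epithelial ligands by 0.43 to 0.60 in the female pair and by 0.70 to 0.74 in the male pair. It also exceeded the median ratio of 14 epithelial markers, none of which passed the test, by 0.61 and 0.80. Against the marker with the highest ratio in each pair, the excess was 0.31 and 0.52. Wnt11 was singled out as the highest of the epithelial ligands on these arrays, so its excess over the other ligands follows from that choice. The excess over the markers is a description and was not tested. Of 8 markers of the kidney's ureteric bud tip and collecting duct that were above background, 2 rose, with Etv5, an ETS factor induced by FGF and RET signals, at 0.46 ± 0.057 (SD, n = 2 pairs) and the receptor kinase gene Ros1 at 0.36 ± 0.050. The Ros1 probe was dim, with 0 of 4 spots well above background in the male control, and its size is uncertain. It was at 1.02 with the processed signals, and its call was lost with median centring (adjusted p = 0.311), the deposited values (0.201) and outlier spots kept (0.0516). The Etv5 call was lost with median centring (adjusted p = 0.117), the deposited values (0.0850) and the processed signals (0.0613). The median of that list was 0.019, Ret, the tip receptor for GDNF, was at -0.059, and Etv4 was at -0.020. The summed level of the list, in log2 units, was 14.92 and 14.84 in the knockout and 14.72 and 14.63 in the control RNAs. Such a sum is weighted to bright probes. Etv5 made up a large part of it, at 13.91 and 13.86 in the knockout and 13.49 and 13.36 in the control RNAs. The sum therefore largely repeats the Etv5 value. The part of bud or kidney tissue in the Wnt11 rise was not tested.

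The mesenchymal ligands did not pass. Wnt5a, the ligand of the ROR2 receptor and a mesenchymal signal for tissue outgrowth, was the member whose mean lay below 0. Its intensities were 9.97 in the labelled knockout and 10.26 in the control of the female pair, and 9.98 and 10.03 in the male pair. The difference was made mainly in the female pair, and the mean ratio of -0.17 ± 0.17 (SD, n = 2 pairs, limma adjusted p = 0.459) was no larger than its spread.

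Wnt4, a signal of the kidney's medullary stroma and of nephron formation, was measured by 2 probes. The brighter gave 13.31 and 13.05 in the knockout and control RNA of the female pair and 13.09 and 12.97 in the male pair. The dimmer gave 11.93 and 11.76, and 11.83 and 11.55. All 4 ratios lay between 0.12 and 0.28, with the larger in the female pair for the brighter probe and in the male pair for the dimmer. The brighter probe's mean was 0.19 ± 0.096 (SD, n = 2 pairs, limma adjusted p = 0.293).

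Wnt2, a ligand of embryonic lung and perivascular mesenchyme, was near the background. It was at 7.21 and 7.17 in the female pair and at 6.94 and 6.91 in the male pair, where 0 of 4 control spots were well above background. Its ratio of 0.040 ± 0.0085 (SD, n = 2 pairs) therefore says little about the size of any change.

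Wnt5b, a close relative of Wnt5a that acts mainly without beta-catenin, rose. Its intensities were 13.90 in the labelled knockout and 13.50 in the control of the female pair, and 13.77 and 13.29 in the male pair. The knockout RNA again lay above its control in both pairs. The log2 ratio was 0.44 ± 0.058 (SD, n = 2 pairs, limma adjusted p = 0.0214), or 1.35-fold with an interval from 1.21 to 1.51. This call did not hold with every processing: the adjusted p was 0.0674 with the scanner software's processed signals, 0.0978 with the deposited values and 0.132 with median centring, at ratios of 0.45, 0.45 and 0.47.

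**Figure D2:**
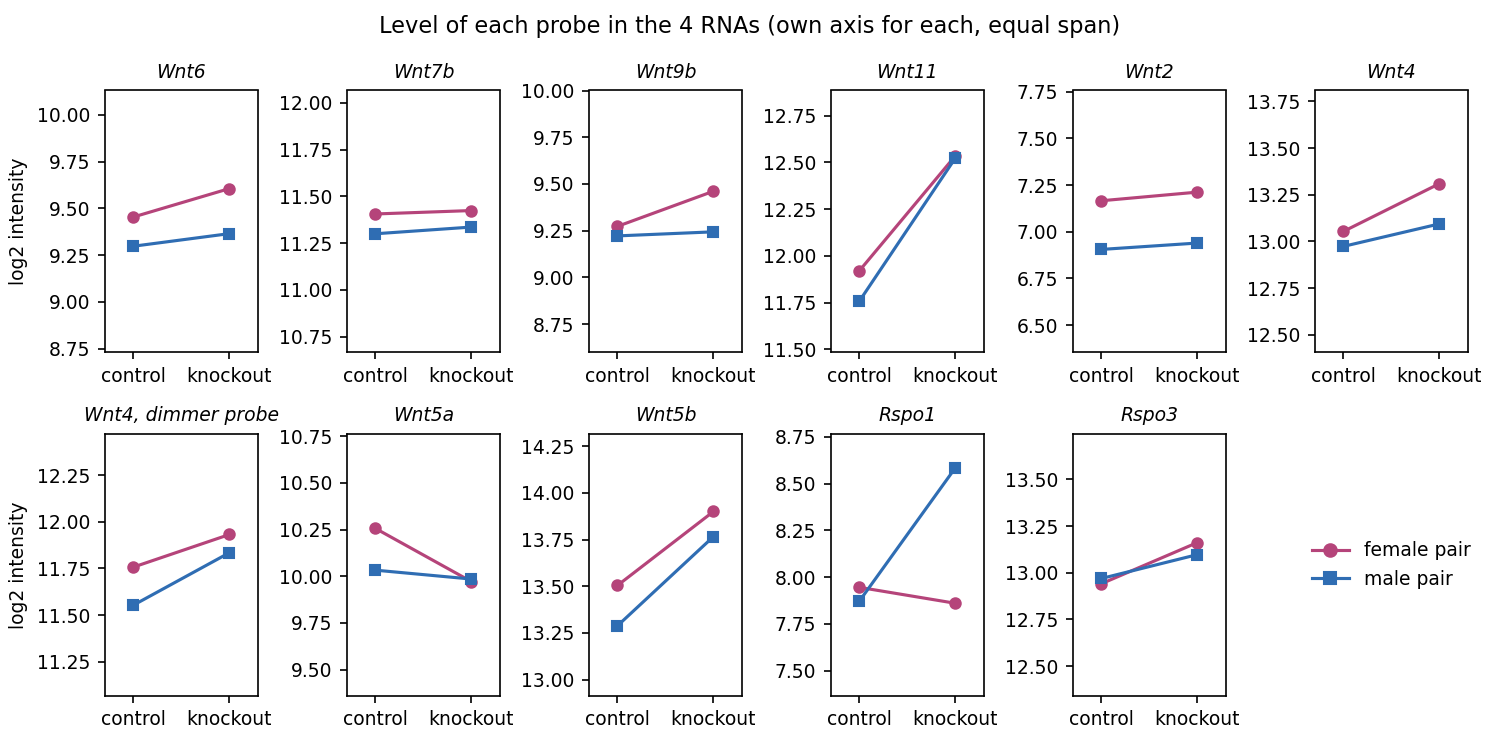
Log2 intensity (vertical axis, a separate axis of equal span for each probe) in the control and the labelled knockout RNA of the female pair (circles) and the male pair (squares), for the 11 probes. Lines join the RNAs of 1 array; the lines of Wnt11 and Wnt5b slope up in both pairs, that of Wnt5a slopes down mainly in the female pair, and that of Rspo1 slopes up in the male pair.

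Compared as groups, epithelial and mesenchymal ligands had medians close to 0. The median log2 ratio of the 4 epithelial ligands was 0.17 for the female and 0.052 for the male pair, and that of the 3 mesenchymal ligands was 0.046 and 0.034. The latter is the ratio of Wnt2, the middle gene of 3 and a probe near background, so the contrast of the groups rests on a poorly measured value. The difference of epithelial over mesenchymal median was 0.12 for the female and 0.017 for the male pair, and 0.067 ± 0.075 (SD, n = 2 pairs) between the medians of the mean ratios. With 2 pairs, the smallest 2-sided p that an exact sign-flip permutation test allows is 0.5, so this difference cannot reach significance. The difference was -0.070 with the scanner software's processed signals, -0.067 with the R-spondins counted as mesenchymal and -0.0068 with Wnt5b counted as mesenchymal, and so changed sign. Leaving out Wnt4 raised it to 0.17, and leaving out Wnt2, an alternative chosen after the data were seen, gave 0.096. Within the epithelial group Wnt11 lay away from the other 3, and within the mesenchymal group Wnt4 and Wnt5a lay on opposite sides of 0.

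The R-spondins differed from each other in how the pairs behaved. Rspo3, an R-spondin of mesenchyme and endothelium, had intensities of 13.16 in the labelled knockout and 12.94 in the control of the female pair, and 13.10 and 12.97 in the male pair. Both ratios were above 0 and the mean of 0.17 ± 0.065 (SD, n = 2 pairs) did not pass (limma adjusted p = 0.313). The list of 6 endothelial markers had a median of 0.13, and 0 of the 6 passed, with Kdr at 0.30 and Pecam1 at 0.23. Their part in the Rspo3 value was not tested.

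Rspo1, known for its part in ovary determination and for expression in the embryonic kidney and coelomic epithelium, was at 7.86 in the labelled knockout and 7.95 in the control of the female pair, and at 8.59 and 7.87 in the male pair. The male knockout RNA stood above the other 3, which lay close together, though levels were not scaled between the arrays. The ratios were -0.085 and 0.71, and the mean of 0.31 ± 0.56 (SD, n = 2 pairs, limma adjusted p = 0.535) was smaller than its spread. The pairs differed by 0.80. An absolute difference between the pairs at least this large was seen for 0.475% of all genes tested. The male ratio was 0.98 with the processed signals and 0.93 with the deposited values, so its size depended on the processing.

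None of the tested markers of nephron, gonad and adrenal, or mesothelium passed the test. As for Rspo1, the ratio was below 0 in the female and above 0 in the male pair for 4 of 8, 3 of 5 and 1 of 3 of them, and for 24.7% of all genes tested. Wt1, a transcription factor of nephron progenitors, gonad and mesothelium, had ratios of -0.032 for the female and 0.79 for the male pair. Wt1 was in both the nephron and the mesothelium list, and it was the 1 of 3 in the latter. Six2, which maintains nephron progenitors, had -0.34 and 1.11, and its dimmer probe -0.22 and 0.80. Of 8 nephron markers 0 passed, and their median was -0.064 for the female and 0.16 for the male pair. Fgf8, at -0.25 and 0.36, and Pax2, at -0.056 and 0.14, had the same signs in the pairs. Cited1, at -0.071 and -0.041, and Pax8, at 0.28 and 0.17, did not. Of 5 gonad and adrenal markers above background 0 passed, with Dhh at 0.11 and Cyp11a1 at -0.045, and Amh and Hsd3b1 were not above background. Cyp11a1 is among the 3 of 5, with a male ratio of 0.0041. In the mesothelium list 0 of 3 passed, and Msln was at -0.084 and -0.19. The part of neighbouring tissue in the Rspo1 value was not tested.

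The receptors that R-spondins bind changed in opposite directions. Lgr5, a receptor that is also a target of beta-catenin, had log2 intensities of 9.21 in the labelled knockout and 8.25 in the control of the female pair and of 9.15 and 8.12 in the male pair. It rose by 1.00 ± 0.048 (SD, n = 2 pairs, limma adjusted p = 0.000938). Lgr4, the related receptor found widely in epithelium and mesenchyme, was at 12.01 and 12.32, and at 11.81 and 12.34. The knockout RNA was below its control in both pairs, as for 28.2% of all genes tested. The mean was -0.42 ± 0.15 (SD, n = 2 pairs, limma adjusted p = 0.0426). The Lgr4 call was near the threshold, and its adjusted p was 0.117 with the processed signals, 0.140 with the deposited values, 0.215 with median centring and 0.0529 with outlier spots kept. Of the ubiquitin ligases, Rnf43 was at 0.18 and Znrf3 at 0.046, neither past the threshold, and Lgr6 was not above background.

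Of 16 WNT receptors and co-receptors (the Frizzled, LRP and ROR genes with Ryk and Ptk7), 1 fell and 15 did not pass, with a median of 0.016. The one that fell was Fzd9, a Frizzled receptor, with log2 ratios of -0.36 and -0.40. Its mean was -0.38 ± 0.028 (SD, n = 2 pairs, limma adjusted p = 0.0337), and the call was lost with the processed signals (adjusted p = 0.0758), the deposited values (0.107) and median centring (0.295). Ror2, the co-receptor of Wnt5a, was at -0.12 and did not pass. The co-receptor genes Lrp5 and Lrp6, at 0.010 and 0.022, had intervals that included 0.

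Of 4 genes for ligand export and inactivation 0 passed. Wls, which carries WNT proteins to the cell surface, was at 0.013. Notum, a secreted enzyme that removes the lipid from WNT proteins and a beta-catenin target, was at -0.31 ± 0.080 (SD, n = 2 pairs, limma adjusted p = 0.0805). Porcn, the enzyme that adds the lipid, had ratios of 0.55 for the female and -0.65 for the male pair. Its mean near 0 therefore hides a large difference between the pairs. The RNA in AlexaFluor647 was the higher in both pairs, and the sex of a pair and its dyes cannot be told apart.

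Among the other 13 WNT ligand and R-spondin genes, 8 were not above background by the filter used, among them Wnt3, Wnt3a and Wnt7a. Of the 5 tested 0 passed, with a median of 0.084. Rspo2, a mesenchymal R-spondin in several organs, had the largest mean at 0.35 ± 0.21 (SD, n = 2 pairs, limma adjusted p = 0.110), and the brighter of 2 Wnt16 probes was at 0.16. In the male control 2 of 4 Rspo2 spots were well above background, and its ratio was 0.67 with the processed signals and 0.65 with the deposited values.

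Genes that restrain WNT signals changed in both directions. Among the genes that respond to them, the 2 called were higher and the others lay on both sides of 0. Of 15 secreted antagonists, their co-receptors and Shisa genes, 3 rose and 1 fell. Dkk2 was at 1.02 ± 0.19 (SD, n = 2 pairs), Shisa2 at 0.56 ± 0.11, Dkk1 at 0.51 ± 0.20 and Sostdc1 at -0.50 ± 0.097. Dkk2 was called under all 15 alternatives, and the other 3 under 11 of 15, since each was lost with the processed signals, the deposited values, median centring and an adjusted p under 0.01. The list's median was 0.042. Of 12 beta-catenin targets and feedback genes 2 rose, Lgr5 and Lef1, and the median was -0.027. Nkd1 (-0.23), Apcdd1 (-0.19), Notum (-0.31), Sp5 (-0.14) and Tcf7 (-0.12) lay below 0 in both pairs and did not pass. Rnf43 and Znrf3 lay above 0 in both pairs and did not pass either. Lef1, a DNA-binding partner of beta-catenin, was at 0.57 ± 0.040 (SD, n = 2 pairs, limma adjusted p = 0.00821), and a second Lef1 probe gave 0.68. The Lef1 call was lost with median centring (adjusted p = 0.0762) and with the deposited values (0.0556). Axin2, the most widely used readout of beta-catenin signalling, was at 0.053, with ratios of 0.14 and -0.033 in the pairs. Of 13 genes of the beta-catenin core, Lef1 was again the one that passed, and the median was -0.036. Of 8 planar cell polarity genes 0 passed, with Celsr3 at 0.34 ± 0.13 and Daam2 at -0.19.

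**Figure D3:**
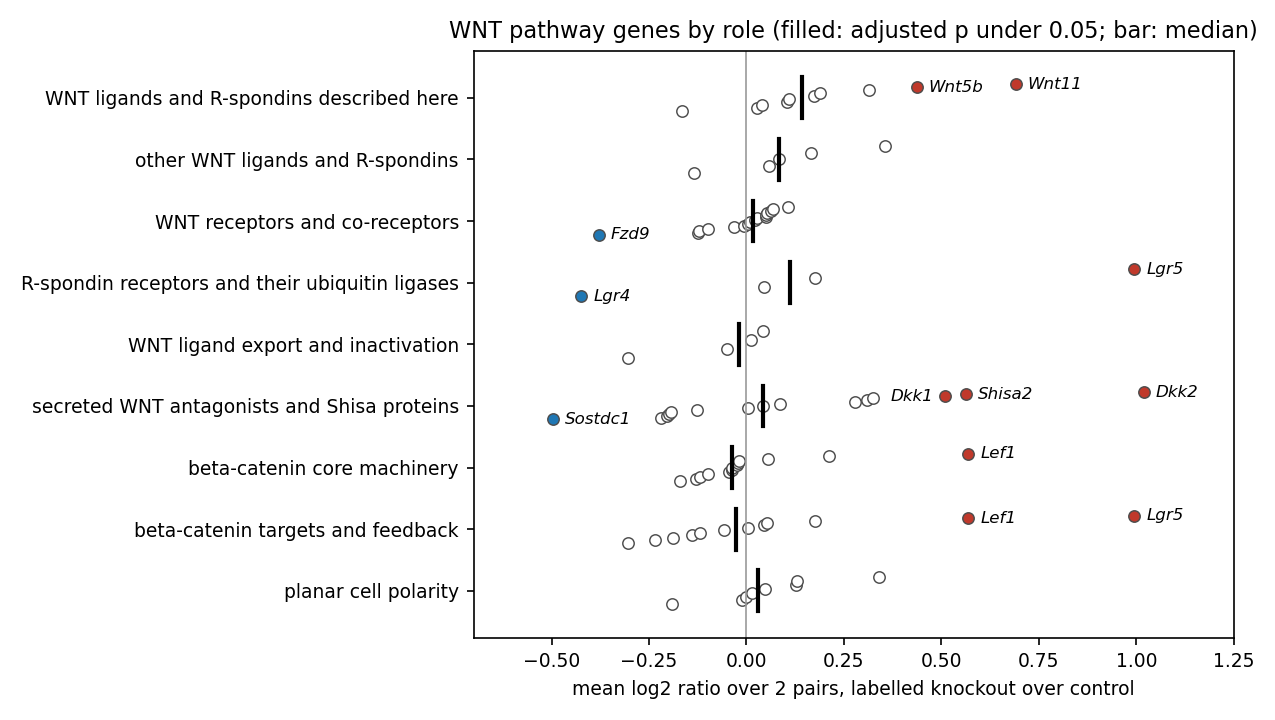
Mean log2 ratio over the 2 pairs (horizontal axis) of WNT pathway genes grouped by role, with red points for genes called higher, blue points for genes called lower, open points for genes that did not pass and a bar for each group's median. The medians lie between -0.036 and 0.14, and the called genes lie away from 0, as the test requires.

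Over the pathway genes, the pattern across pairs nearest to that of Wnt11 (Euclidean distance between the log2 ratios of the 2 pairs) was that of Lef1, at a distance of 0.18, followed by Dkk1 at 0.27. Nearest to Wnt5b were Celsr3, at 0.15, and Dkk1, at 0.17. These distances rest on 2 values per gene. Genes outside the pathway lists were not searched, so the distances do not show a pattern particular to these genes.

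Markers of other cell types and of handling were read as well. Of 6 markers of neural crest, glia and neurons, 2 rose, Fabp7 at 0.71 ± 0.023 (SD, n = 2 pairs) and Prph at 0.69 ± 0.071. Of 5 immediate early genes, which respond to handling, 4 fell, with Fosb at -0.97, Atf3 at -0.73, Fos at -0.72 and Egr1 at -0.70. Fosb, Fos and Egr1 were called under 10 and Atf3 under 6 of 15 alternatives, with adjusted p-values (limma) up to 0.239 for Atf3. Of the 9 mesenchymal markers, Foxf1, at -0.49 ± 0.11, and Pdgfra, at -0.39 ± 0.051, fell, Bmp4, at 0.36 ± 0.026, rose (SD, n = 2 pairs), and 6 did not pass. Foxf1 was called under 11, Pdgfra under 10 and Bmp4 under 9 of 15 alternatives, and with median centring their adjusted p-values (limma) were 0.146, 0.562 and 0.616. The summed level of the mesenchymal markers, in log2 units, was 19.08 and 19.00 in the knockout and 19.04 and 18.98 in the control RNAs, and that of the epithelial markers 18.06 and 18.06, against 18.24 and 18.09. The part of these shifts in the values of the WNT ligands was not tested.

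**Figure D4:**
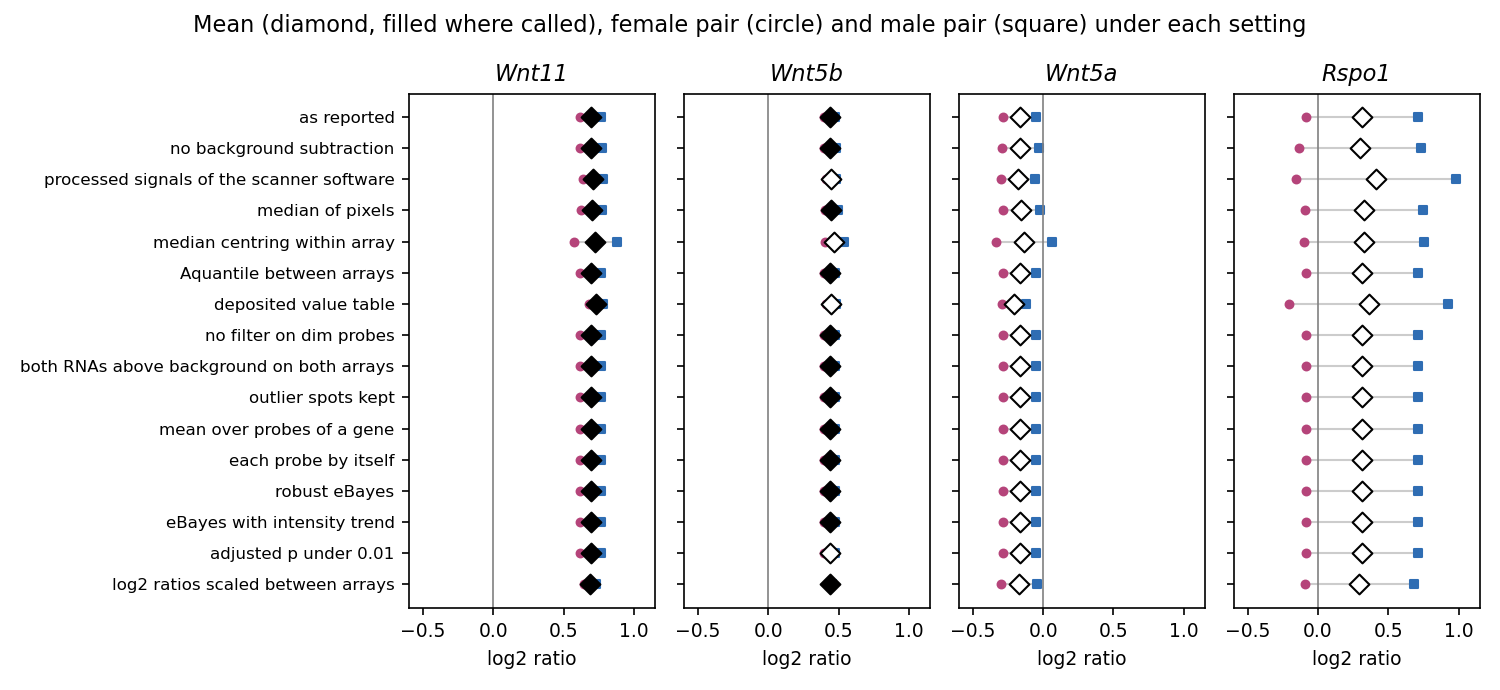
Log2 ratio (horizontal axis) of Wnt11, Wnt5b, Wnt5a and Rspo1 under each processing, with a diamond for the mean, filled where it was called, a circle for the female and a square for the male pair. Wnt11 was called under all 15 alternatives and Wnt5b under 11 of 15, the Wnt5a means lay between -0.21 and -0.14, and the pairs of Rspo1 lay on either side of 0 under all 15. Among these, Aquantile normalization between arrays leaves the ratios as reported.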

How the data were processed

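Total RNA of each pair was hybridised to a 2-colour Agilent array. Per the file headers and the submitters' processing notes, the arrays were read with Agilent Feature Extraction 10.7.3.1. The deposited scanner files hold raw intensity values of spots and local background, and processed intensity signals with background subtracted and dyes normalized by LOWESS. A deposited table holds a score per probe and array, a signed fold whose floor and centring are unknown. Its median was 1 in both columns, and its log2 values correlated with the processed ratios at 0.982 and 0.985 over 24806 bright probes, oriented as labelled knockout over control.

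Mean intensities were corrected with normexp (offset 50) and normalized by loess within arrays in R 4.3.3 with limma 3.58.1. Control spots had weight 0, flagged non-uniform spots were left out and the 4 spots averaged. Probes were kept where over 0.5 of the spots exceeded background well in the knockout RNAs, or in the control RNAs, of both arrays (25934 of 39396), the brightest probe stood for a gene, and RefSeq accessions (GRCm38.p6) named 28303 probes. Log2 ratios were tested with lmFit and eBayes (1 residual and 5.24 prior degrees of freedom) and Benjamini-Hochberg adjustment over 20629 genes, and the p-values rest largely on the pooled spread of all genes. They measure the spread between these samples, which may be technical. Levels of different probes are not comparable. Levels were also not scaled between the arrays, so levels set side by side across the pairs may hold an array offset. Genes were named by a rule that took all 10 members with every probe, the targeted genes, up to 4 called genes per list (or the 2 with the largest mean ratio where 0 passed) and the 2 nearest pathway genes of each called member. Other genes (Rnf43, Znrf3, Ror2, Lrp5, Lrp6, Wls, Axin2, Ret, Etv4, Cited1, Pax8, Fgf8, Pax2 and genes below background) were chosen after their values were seen. So were Nkd1, Apcdd1, Sp5 and Tcf7. The members and lists were chosen with earlier results of these data known. The procedure was tested on simulated data.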

Additional observations from a re-analysis of the deposited data

Results flagged for a closer look

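The values given here are genes whose female and male pairs had ratios of opposite sign. With 1 pair per sex the difference was not tested, and the dyes were exchanged between the pairs too. Over all genes tested, 44.2% had opposite signs, most of them near 0. Male minus female, the log2 ratio of Rspo1 differed by 0.80, that of Wt1 by 0.82 and that of Six2 by 1.44. In all 3 the male knockout RNA had the highest level of the 4 RNAs, on levels not scaled between the arrays. Porcn went the other way, with a difference of -1.21, and Cyp11a1 differed by 0.099.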

How the results depend on the processing

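Over 15 alternatives with a test, Wnt11 stayed called in 15, with ratios from 0.69 to 0.73 and adjusted p-values (limma) from 0.000913 to 0.0490. Wnt5b stayed called in 11, with ratios from 0.44 to 0.47 and adjusted p from 0.00732 to 0.132. The number of members called higher fell to 1 with the processed signals, median centring, the deposited value table and an adjusted p under 0.01, and 0 were called lower under any of the 15. The other 8 members were called in 0 of the alternatives that measured them. Over all genes, 249 were higher and 214 lower with the processed signals, 114 and 128 with median centring, 142 and 143 with the deposited table, and 147 and 168 at an adjusted p under 0.01, against 385 and 374. The mesenchymal median was 0.049 without background subtraction, 0.19 with the processed signals, 0.016 with median centring and -0.0052 with the deposited table. The epithelial minus mesenchymal difference was -0.070 with the processed signals, -0.067 with the R-spondins counted as mesenchymal and 0.17 without Wnt4. Without replicate 1 or without replicate 2 it lay between 0.017 and 0.12, and 1 array allows no test. Aquantile leaves ratios as they are, so its entry among the 15 repeats the reported calls. Scaling the log2 ratios between arrays was therefore added after the data were seen and changed no member's call. The signal over background limits Wnt2 and the 8 dim WNT ligand and R-spondin genes. Every test was paired, since each array holds both RNAs of a pair, and a fit without the pairing was not run.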
